A study of Rattus norvegicus with 16 samples.

Results

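The 41 rat microRNAs (miRNAs) described here were listed in the deposited count tables of weeks 2, 4 and 5 after surgery and were not listed in the week 7 table. They are 41 of the 358 rat miRNAs in the tables of weeks 2, 4 and 5. The other 317 were listed in all 4 tables. No let-7 miRNA met the rule, so none had to be left out. Their presence in the tables, itself a readout of the reads, chose these miRNAs, so their level is given as a description and not as a finding. The rule by which the authors listed a miRNA is not given in the sources used. A miRNA that is not listed at week 7 has no value there in the tables used here, which is not the same as a count of 0.

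Small RNA came from the left ventricle of the heart of male Sprague Dawley rats kept on 0.4% Dyets chow. The rats were 9 weeks old at delivery. At 10 weeks of age one group had 5/6 nephrectomy by excision (5/6Nx), which removes most of the kidney mass and leaves a remnant, and the other had sham surgery. Hearts were taken 2, 4, 5 or 7 weeks later, so the groups used here are 5/6Nx and sham at 2, 4 and 5 weeks. There were 2 libraries in each of the 6 groups, here called pools A and B, with the RNA of 2 to 3 rats in a library. All rats were of 1 strain, 1 sex and 1 diet, and the labels name no transgene and no drug. The 5/6Nx rats keep a kidney remnant. Nothing states beyond this that the pools of a group hold different rats, so the p-values cover the spread among these pools only.

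MiRNAs are cut from hairpin precursors by Drosha with its partner Dgcr8 and then by Dicer. One strand of the resulting duplex, the 5p or the 3p arm, is usually kept in an Argonaute protein and the other is mostly degraded. The kept strand finds messenger RNAs through its seed (bases 2 to 8), and these are then repressed. In heart muscle a few miRNAs such as miR-1, miR-133a, miR-208a and miR-499 make up much of the muscle-specific pool, while many others come from minor cell types or are the lesser arm of an abundant hairpin.

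Mature sequences were taken from RefSeq (GRCr8), where 34 of the 41 names matched. The next sequences belong to the members that the results on surgery and level turn on, written 5′ to 3′ with the seed in capitals.
miR-138-5p: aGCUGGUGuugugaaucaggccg
miR-877: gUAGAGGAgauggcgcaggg
miR-100-3p: cAAGCUUGugucuauaggu
miR-3559-3p: aUGUAGUAcugagucugucgug
miR-134-5p: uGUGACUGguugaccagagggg
miR-384-3p: aUUCCUAGaaauuguucacaau
miR-34b-5p: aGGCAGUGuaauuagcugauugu
miR-181b-1-3p: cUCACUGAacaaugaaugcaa
miR-153-3p: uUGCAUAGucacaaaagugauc
miR-296-5p: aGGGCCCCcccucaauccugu
The 34 matched members had 34 distinct seeds, so no seed was shared among them. The seeds of the 7 members without a match, among them miR-200b-3p and miR-429, were not compared. miR-34b-5p shared its seed with miR-34a-5p, miR-34c-5p and miR-449a-5p, which were listed in all 4 tables. miR-708-5p shared its seed AGGAGCU with miR-28-5p.

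The members come from scattered places in the genome (GRCr8 coordinates). miR-138-5p has hairpins at chr8:131178456-131178478 on the plus strand and chr19:10680184-10680206 on the minus strand, the second within the span of Slc12a3. miR-877 lies at chr20:2816284-2816303 on the plus strand within the span of Abcf1, and its hairpin is known as a mirtron, an intron that folds into the precursor itself. miR-153-3p lies at chr6:144306646-144306667 on the plus strand within the span of Ptprn2, a gene of secretory vesicles. miR-100-3p lies at chr8:50798342-50798360 on the plus strand within the span of the noncoding gene Lnc215. Both arms of miR-325 and miR-384-3p (chrX:74490899-74490920, minus strand) fall within the span of the same noncoding gene, LOC103690870. Other members lie within the spans of protein-coding genes, among them miR-33-3p in Srebf2, a regulator of cholesterol synthesis, miR-1306-5p in Dgcr8 and miR-93-3p in Mcm7. Exon and intron borders were not used here.

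All 41 members together held 3376 of 29119278 counts on rat miRNAs over the 12 libraries of weeks 2, 4 and 5, which is 0.0116%, with 0.00958% to 0.0157% in single libraries. A member had between 39 and 362 counts summed over the 12 libraries, with a median of 66. Of the 492 values, 14 were 0, 384 were 1 to 9 and 94 were 10 or more. The median value was 6 reads, at which counting alone gives a relative SD of 40.8%. That spread is the scale against which any difference between pools must be read. miR-138-5p was the 1 member with 10 or more reads in every library, while 14 members never reached 10.

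**Figure D1:**
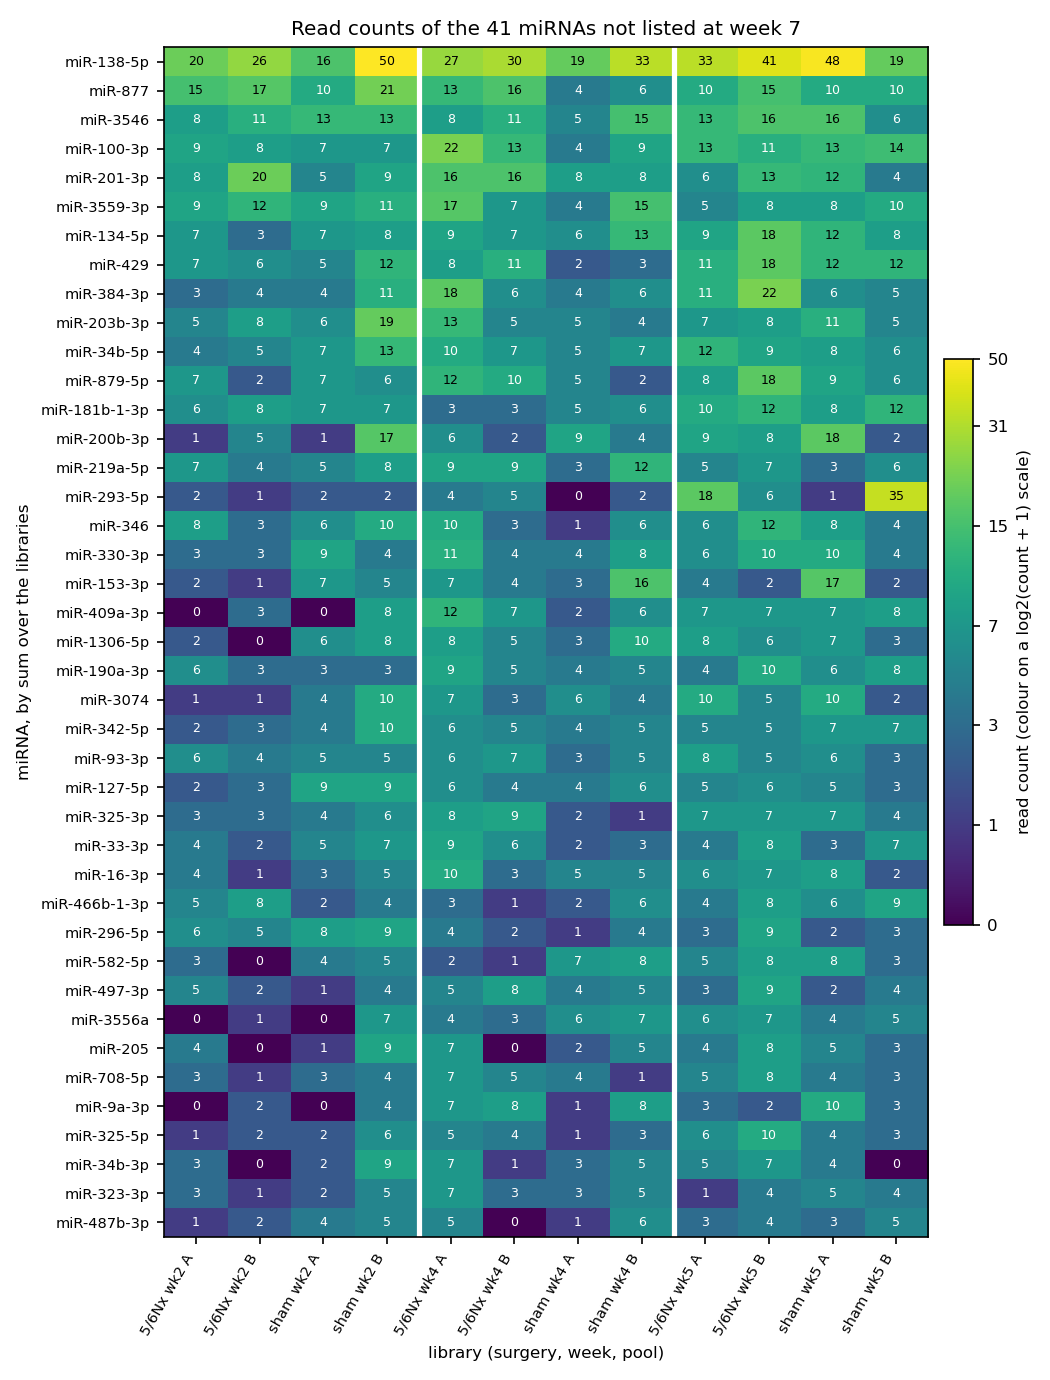
Read counts of the 41 miRNAs (rows, ordered by their sum) in the 12 libraries of weeks 2, 4 and 5 (columns, 5/6Nx left of sham within each week). The top row, miR-138-5p, holds 16 to 50 reads, and 80.9% of all values are under 10 reads.

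Mean levels over the 12 libraries ran from 1.32 to 12.5 CPM (read counts scaled to equal library size), with a median of 2.30 CPM, against a median of 52.8 CPM for the 317 miRNAs listed in all 4 tables. The 10 highest members after and including miR-138-5p at 12.5 CPM were miR-877 at 5.35, miR-3546 at 4.80, miR-100-3p at 4.52, miR-201-3p at 4.50, miR-3559-3p at 4.14, miR-134-5p at 3.72, miR-429 at 3.63, miR-203b-3p at 3.31 and miR-34b-5p at 3.22 CPM. From miR-877 down, neighbours in this order differed by less than the largest SD between pools of either. For comparison, the muscle miRNAs that check the tissue had medians of 58640 CPM for miR-133a-3p, 2341 CPM for miR-1-3p and 1267 CPM for miR-499-5p. All were above the median of 52.8 CPM of the miRNAs listed in all 4 tables, and no member belongs to the list of cardiomyocyte miRNAs.

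The share of rat miRNAs not listed at week 7 fell with level. Of the miRNAs with a sum of 0 to 49 counts over the 12 libraries, 7 of 10 (70.0%) were not listed. The share was 25 of 37 (67.6%) for sums of 50 to 99, 8 of 48 (16.7%) for sums from 100 to under 200 and 1 of 34 (2.94%) for sums from 200 to under 400. Of the 229 miRNAs with 400 counts or more, 0 were missing from the week 7 table. The libraries of week 7 had 1625699 and 1365890 counts on rat miRNAs in the 5/6Nx pools and 1073616 and 672077 in the sham pools, against 1239829 to 3509916 in the 12 earlier libraries. Both sham pools of week 7 were below all earlier libraries, and both 5/6Nx pools lay within their range. Every rat miRNA of the week 7 table had 5 or more reads in at least 1 of its 4 libraries. This bound did not hold within each earlier table. miR-293-5p was listed at week 2 with 2 and 1 reads in the 5/6Nx pools and 2 and 2 in sham. Over the 12 earlier libraries together, every rat miRNA had 5 or more reads in at least 4. A listing before week 7 and one at week 7 may thus not be alike. Scaled to the deepest week 7 library, the mean level of 29 members came to fewer than 5 reads and that of 12 to 5 or more. These are rescaled earlier levels and not week 7 measurements. Just inside and just outside the rule, miR-138-5p (362 counts) was not listed at week 7 while miR-409b (359 counts) was.

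**Figure D2:**
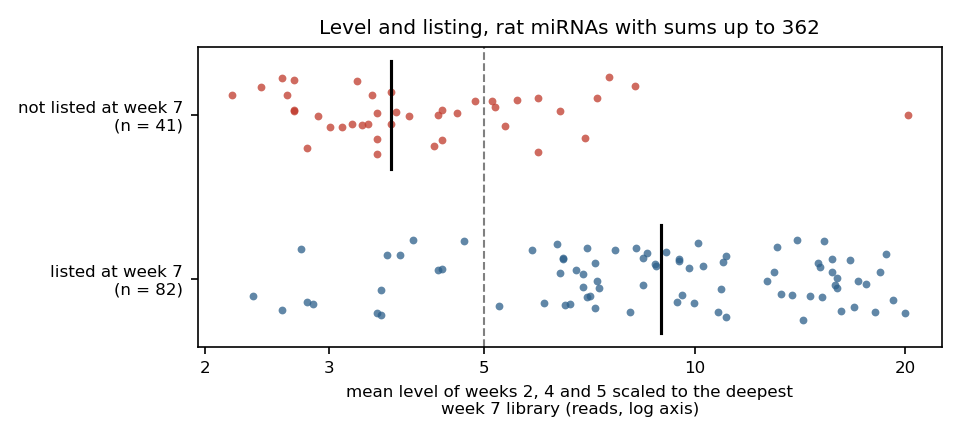
Each point is a rat miRNA with a sum of at most 362 counts, placed by its mean level of weeks 2, 4 and 5 scaled to the deepest week 7 library (log axis, in reads). The upper row holds the 41 members and the lower row 82 miRNAs also listed at week 7, black bars are medians, and the dashed line marks 5 reads. Of the lower row 14 fall under 5 reads, and miR-138-5p at 20.2 reads is the point furthest right in the upper row.

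miR-138-5p, a brain-enriched miRNA that limits dendritic spine growth in neurons, would come to 20.2 and 17.0 reads in the 5/6Nx pools A and B of week 7 and to 13.3 and 8.36 reads in the sham pools at its earlier level. It was the highest of the 12 members that came to 5 or more reads in the deepest week 7 library. The next, miR-877, would come to 8.21 reads there, in 5/6Nx pool A. The cause of the absence of miR-138-5p from the week 7 table was not tested.

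Many members were the lesser arm of their hairpin, and for a part of these the other arm was abundant. By name, 21 members were 3p arms, 13 were 5p arms and 7 carried no arm. For 22 members the other arm was also in the tables, and the member was the lesser arm in 19 of these. The median share of the counts of both arms on the member was 13.1%. Several other arms were scarce too, such as miR-203b-5p at 3.74 CPM, miR-708-3p at 4.56 CPM and miR-384-5p at 5.94 CPM. The next pairs are among the most uneven. miR-16-3p had 59 counts over the 12 libraries and miR-16-5p, a repressor of the cell cycle, had 157521. miR-100-3p had 130 counts and miR-100-5p, of the miR-99 family, had 42020. The 3p arm thus took 0.0374% of the counts of the miR-16 hairpin and 0.308% of those of miR-100. miR-127-5p (0.344%), miR-497-3p (0.412%), miR-93-3p (0.579%) and miR-9a-3p (0.794%) were likewise under 1% of their hairpin. miR-181b-1-3p had 87 counts and miR-181b-5p, which other hairpins also give, 36479. The sequences of 3 such pairs show how far the seeds of the arms of a hairpin differ (capitals).
miR-16-3p: aCCAAUAUuauugugcugcuu
miR-16-5p: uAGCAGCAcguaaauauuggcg
miR-100-5p: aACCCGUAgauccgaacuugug
miR-181b-5p: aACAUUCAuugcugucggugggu

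The exceptions were miR-219a-5p, miR-34b-5p and miR-325-3p. miR-219a-5p, known for its part in oligodendrocyte maturation, had 78 counts, as had miR-219a-1-3p, which comes from one of the miR-219a hairpins. For miR-34b and miR-325 both arms were members, with 93 counts for miR-34b-5p and 46 for miR-34b-3p, and 61 for miR-325-3p and 47 for miR-325-5p. In the other 18 pairs the arm that was not a member was listed at week 7.

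**Figure D3:**
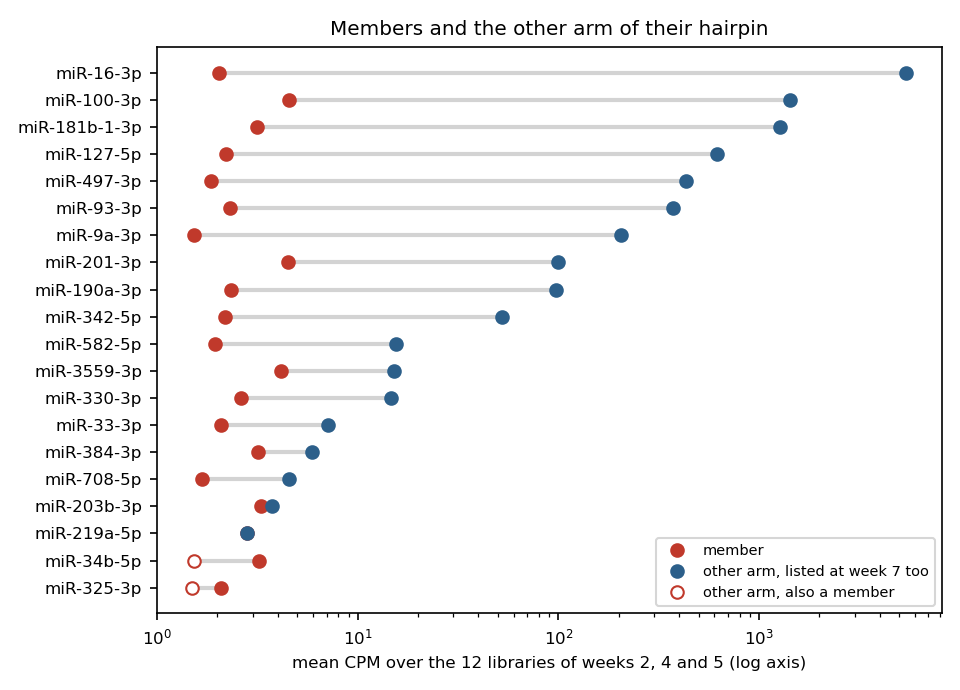
Mean CPM over the 12 libraries (log axis) of members (red) and of the other arm of their hairpin (blue where listed in all 4 tables, open where also a member). miR-16-3p at 2.04 CPM and miR-16-5p at 5426 CPM stand furthest apart, and miR-219a-5p coincides with its partner.

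A further group of members is the reverse complement of a miRNA made from the opposite strand. The capitals in the next sequences mark the bases that pair perfectly with the partner given on the following line.
miR-3546: AUAACCCGGGCCAAAAGCUCac
miR-208a-5p: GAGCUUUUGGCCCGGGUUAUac
miR-3556a: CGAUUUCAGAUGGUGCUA
miR-29a-3p: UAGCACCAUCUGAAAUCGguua
miR-3074: GAUAUCAGCUCAGUAGGCACcg
miR-24-1-5p: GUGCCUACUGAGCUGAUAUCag
miR-409a-3p: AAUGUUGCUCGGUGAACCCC
miR-409b: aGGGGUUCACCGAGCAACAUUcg
miR-3546 lies at chr15:32395601-32395622 on the plus strand, opposite the hairpin of miR-208a and within the span of Myh6, the gene of alpha myosin heavy chain. miR-3546 had 135 counts over the 12 libraries and miR-208a-5p had 1803. miR-3556a, opposite the hairpin of miR-29a, had 50 counts, and miR-29a-3p, a repressor of collagen genes, had 82362. miR-3074, opposite the hairpin of miR-24-1, had 63 counts and miR-24-1-5p had 285. A stretch of 16 bases of miR-3074 also pairs with miR-24-2-5p, which had 10287 counts. miR-409a-3p had 67 counts and its mirror miR-409b had 359. All 4 partners shown above, and miR-24-2-5p, were listed at week 7. Whether the authors counted reads by strand is not given in the sources used here, so reads of such a member and its partner may not be fully told apart. miR-203b-3p also overlaps a hairpin on the opposite strand, that of miR-203. So do miR-9a-3p, with the hairpins of miR-3597, and miR-219a-5p, with that of miR-2964.

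Before the comparisons of surgery, 2 features of the libraries bear on them. The sham pools of week 5 were the least alike pair, with a correlation of 0.976 between their log2 CPM over rat miRNAs, against 0.992 to 0.995 in the other 5 groups. At week 2 both 5/6Nx libraries had fewer counts on rat miRNAs (1239829 and 1671456) than both sham libraries (1721880 and 2795801). In the table of mapping rates, whose pools carry other names, 70.1% and 79.0% of reads mapped in the 5/6Nx pools of week 2 against 82.7% and 88.5% in sham. The CPM summed over the 41 members overlapped between the groups at every week. It was 140 and 97.6 in the 5/6Nx pools A and B against 117 and 130 in sham at week 2, 113 and 110 against 109 and 117 at week 4, and 117 and 118 against 125 and 112 at week 5. In heart tissue, fewer cells of a type and less of a miRNA per cell cannot be told apart.

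Surgery was tested with edgeR's quasi-likelihood test on all rat miRNAs at once, with Benjamini-Hochberg adjusted p-values over the 327 that passed a filter on low counts. Of the members 19 passed the filter and 22, with mean levels of 1.32 to 2.66 CPM, did not. At week 2, 0 of the 19 passed the test at an adjusted p of 0.05, where 0.306% of all 327 did, and 2 had an unadjusted p under 0.05 (10.5%, against 22.0% of all 327). At week 4, 0 passed, where 0% of all did, and 3 had an unadjusted p under 0.05 (15.8%, against 6.42%). At week 5, 0 passed, where 0% of all did, and 1 had an unadjusted p under 0.05 (5.26%, against 9.17%). limma-voom also passed 0 members in each week. DESeq2 passed 0 as well, but at week 2 it gave an adjusted p to 1 of the 19 only. Without its filter on low counts, a setting added after the data were seen, all 19 had one and 0 passed at week 2 (29 of all 327 did), with a smallest adjusted p of 0.212 among members. The 19 had to reach the filter in at least 2 libraries, so these shares describe the better counted members and not the whole set. miR-466b-1-3p, 1 of the 2 members with an unadjusted p under 0.05 at week 2, reached it only in the 5/6Nx pools of that week. miR-153-3p and miR-200b-3p reached it in sham libraries only. miR-34b-5p reached it in 3 libraries, both sham pools of week 2 and 5/6Nx pool A of week 5.

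With all 358 rat miRNAs kept in the fit, 0 of the 41 members passed in any of the 3 weeks (0% of all in each). An unadjusted p under 0.05 was reached by 3 of 41 at week 2 (18.7% of all 358 did), by 4 at week 4 (6.70% of all) and by 1 at week 5 (8.94% of all). The median log2 change of 5/6Nx over sham was -0.22 over the members and -0.03 over all 358 at week 2, with 16 members above and 25 below 0. It was -0.16 against -0.01 at week 4, with 18 above and 23 below, and 0.05 against -0.02 at week 5, with 21 above and 20 below. In the authors' deposited table, 0 of the 41 members had a raw p under 0.05 in any of these weeks, and the smallest raw p-values were 0.367 for miR-201-3p at week 2, 0.319 for miR-582-5p at week 4 and 0.402 for miR-153-3p at week 5.

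Both 5/6Nx pools lay above both sham pools in CPM for 6 of 41 members at week 2 (21.5% of all rat miRNAs did), for 9 at week 4 (21.8% of all) and for 4 at week 5 (17.6% of all). They lay below for 9 members at week 2 (36.0% of all), 6 at week 4 (19.8% of all) and 4 at week 5 (16.8% of all). As shares of the members these are 14.6%, 22.0% and 9.76% above and 22.0%, 14.6% and 9.76% below. miR-877 and miR-100-3p were above at weeks 2 and 4, miR-127-5p was below at weeks 2 and 4, and miR-342-5p below at weeks 2 and 5. Other members changed side. miR-181b-1-3p and miR-466b-1-3p were above at week 2 and below at week 4, and miR-3559-3p above at week 2 and below at week 5. miR-384-3p was below at week 2 and above at week 5, and miR-325-5p below at week 2 and above at weeks 4 and 5. How often rat miRNAs as a whole repeat a side was not counted.

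**Figure D4:**
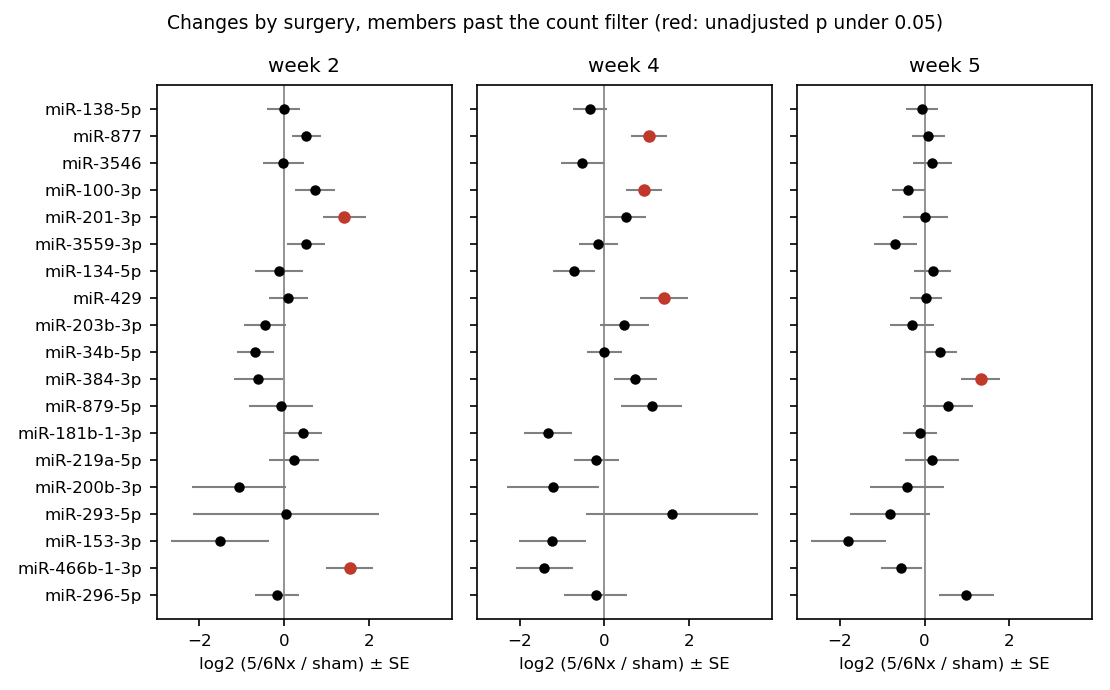
Log2 change of 5/6Nx over sham ± SE (edgeR) for the 19 members past the count filter, ordered from the highest mean CPM at the top, in 1 panel a week. Red points have an unadjusted p under 0.05 (2, 3 and 1 members at weeks 2, 4 and 5), and none passed after adjustment. At few reads the SE shown can be smaller than counting error alone.

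The most abundant member, miR-138-5p, had 20 and 26 reads in the 5/6Nx pools and 16 and 50 in sham at week 2, 27 and 30 against 19 and 33 at week 4, and 33 and 41 against 48 and 19 at week 5. The groups overlapped in CPM in all 3 weeks. Its log2 changes were -0.01 ± 0.39 at week 2, -0.33 ± 0.40 at week 4 and -0.06 ± 0.37 at week 5 (SE, edgeR adjusted p of 0.920 to 0.990). For members with fewer reads this SE can be smaller than counting error alone, here and below. miR-3546, opposite miR-208a, also overlapped between the groups, with 8 and 11 reads against 13 and 13 at week 2, 8 and 11 against 5 and 15 at week 4, and 13 and 16 against 16 and 6 at week 5. Its log2 changes lay between -0.52 ± 0.51 and 0.18 ± 0.46 (edgeR adjusted p of 0.909 to 0.986). miR-203b-3p, from the locus of the keratinocyte miRNA miR-203, had 5 and 8 reads against 6 and 19 at week 2, 13 and 5 against 5 and 4 at week 4, and 7 and 8 against 11 and 5 at week 5.

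The smallest adjusted p of any member for surgery belonged to miR-201-3p, the lesser arm of an X-linked hairpin that in mouse belongs to a testis cluster. It had 8 and 20 reads in the 5/6Nx pools of week 2, at 5.75 and 10.1 CPM, and 5 and 9 reads in sham, at 2.85 and 3.11 CPM. Both 5/6Nx pools were above both sham pools. The log2 change was 1.42 ± 0.50 (edgeR adjusted p = 0.119), which did not pass. Over the fits that left out 1 library, the change lay between 0.92 (adjusted p = 0.487, without 5/6Nx pool B of week 2) and 1.72 (adjusted p = 0.206, without 5/6Nx pool A of week 2), and the largest adjusted p was 0.512, without sham pool B of week 2. The edgeR adjusted p was 0.0440 or 0.0386 without sham pool A or B of week 5, libraries of another week that enter through the pooled spread, and 61 and 57 of all rat miRNAs passed at week 2 in these fits. At week 4 it had 16 and 16 reads against 8 and 8, where the CPM overlapped, and at week 5 it had 6 and 13 against 12 and 4. Its log2 changes there were 0.50 ± 0.48 and 0.02 ± 0.52.

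The other arm of that hairpin, which is not a member, went the other way at week 2.
miR-201-5p: cACUCAGUaaggcauuguuc
miR-201-5p had 74 and 108 reads in the 5/6Nx pools and 174 and 390 in sham (53.1 and 54.3 against 99.3 and 135 CPM). It fell after 5/6Nx and was the 1 rat miRNA of 327 that passed at week 2 (log2 -1.13 ± 0.19, edgeR adjusted p = 0.0361). How many rat miRNAs passed at week 2 depended on the setting. Scaled by library totals alone, by RLE size factors or without the 5 most abundant miRNAs, 0 passed. The number was also 0 with the pool letter as a block, with only the 4 libraries of the week, and without the count filter. In limma-voom and with a minimum count of 30 it was 2, with miRNAs of other species and loci 3, and in DESeq2 34. The 3p arm took 9.76% and 15.6% of the counts of the hairpin in the 5/6Nx pools, against 2.79% and 2.26% in sham. At week 4 the shares were 4.98% and 7.11% against 4.00% and 2.59%, and at week 5 they were 2.14% and 3.35% against 3.53% and 1.68%. The groups were apart at weeks 2 and 4 and overlapped at week 5, and no test of the difference between arms was run. With both 5/6Nx libraries of week 2 lower in counts and in mapped reads, the part of these in the shares was not tested.

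miR-466b-1-3p, of a large rodent miRNA family, lay above sham at week 2 and below it at week 4. It reached the level of the filter in 2 libraries only, the 5/6Nx pools of week 2. It thus entered the tests through the group in which it was high, and its p-values are given as a description. It had 5 and 8 reads in the 5/6Nx pools against 2 and 4 in sham at week 2, 3 and 1 against 2 and 6 at week 4, and 4 and 8 against 6 and 9 at week 5. In CPM the groups were apart at weeks 2 and 4 and overlapped at week 5. The log2 changes were 1.54 ± 0.56 (edgeR adjusted p = 0.145), -1.42 ± 0.67 (adjusted p = 0.754) and -0.55 ± 0.48 (adjusted p = 0.829). In the test of whether the weekly changes differ it had the smallest p of the members (edgeR adjusted p = 0.218). In that test 0 of 19 members passed, where 0% of all 327 did, and 1 had an unadjusted p under 0.05 (15.6% of all did).

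miR-877, the mirtron of Abcf1, had 15 and 17 reads in the 5/6Nx pools and 10 and 21 in sham at week 2, 13 and 16 against 4 and 6 at week 4, and 10 and 15 against 10 and 10 at week 5. In CPM both 5/6Nx pools were above both sham pools at weeks 2 (10.8 and 8.55 against 5.70 and 7.27) and 4 (4.00 and 6.80 against 2.63 and 2.44). Its log2 changes were 0.52 ± 0.34, 1.05 ± 0.43 and 0.09 ± 0.38 (edgeR adjusted p = 0.406, 0.754 and 0.963). miR-100-3p had 9 and 8 reads against 7 and 7 at week 2, 22 and 13 against 4 and 9 at week 4, and 13 and 11 against 13 and 14 at week 5. Its log2 changes of 0.72 ± 0.47 and 0.93 ± 0.42 at weeks 2 and 4 and of -0.39 ± 0.39 at week 5 did not pass (edgeR adjusted p of 0.401 to 0.829). The abundant arm miR-100-5p had log2 changes of -0.31 ± 0.32, -0.11 ± 0.32 and -0.41 ± 0.32 in these weeks, and did not pass either (edgeR adjusted p of 0.630 to 0.975).

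At week 4 the smallest member p was that of miR-429, an epithelial miRNA of the miR-200 family that represses Zeb1 and Zeb2. It had 8 and 11 reads in the 5/6Nx pools and 2 and 3 in sham, and the groups did not overlap (2.46 and 4.68 against 1.31 and 1.22 CPM). The log2 change was 1.41 ± 0.57 (edgeR adjusted p = 0.754). At weeks 2 and 5 the groups overlapped, with 7 and 6 reads against 5 and 12, and 11 and 18 against 12 and 12. miR-879-5p had 12 and 10 reads against 5 and 2 at week 4 (1.12 ± 0.72, edgeR adjusted p = 0.899) and 8 and 18 against 9 and 6 at week 5 (0.55 ± 0.59, edgeR adjusted p = 0.849).

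On the lower side at week 4 stood miR-181b-1-3p, with 3 and 3 reads in the 5/6Nx pools against 5 and 6 in sham (log2 -1.33 ± 0.57, edgeR adjusted p = 0.754). It had 6 and 8 reads against 7 and 7 at week 2 and 10 and 12 against 8 and 12 at week 5, with log2 changes of 0.44 ± 0.46 and -0.10 ± 0.40. miR-134-5p, a brain miRNA of the imprinted Dlk1-Dio3 region, had 9 and 7 reads against 6 and 13 at week 4 (log2 -0.72 ± 0.49, edgeR adjusted p = 0.899). It had 7 and 3 against 7 and 8 at week 2 and 9 and 18 against 12 and 8 at week 5. Scaled by library size, its week 4 values of 2.77 and 2.98 CPM after 5/6Nx were both below the 3.94 and 5.29 CPM of sham.

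miR-153-3p, a neural miRNA that lies within the Ptprn2 gene, had lower means after 5/6Nx in all 3 weeks. It reached the level of the filter in 3 libraries only, all of them sham, so it entered the tests through the groups in which it was high. It had 2 and 1 reads in the 5/6Nx pools against 7 and 5 in sham at week 2, 7 and 4 against 3 and 16 at week 4, and 4 and 2 against 17 and 2 at week 5. The groups were apart at week 2 and overlapped at weeks 4 and 5 in CPM, and 1 sham pool held most of the sham reads in each of those weeks. For the mean of the 3 weeks the log2 change was -1.51 ± 0.55 (edgeR adjusted p = 0.244). It was -0.84 (adjusted p = 0.423) without sham pool A of week 5 and -1.77 (adjusted p = 0.0192) without pool B, where 49 of all rat miRNAs passed. At week 2, where the 5/6Nx pools held 3 reads in all against 12, the ratio scaled by library size was 0.343, with an exact 95% interval of 0.0622 to 1.27 for counting error alone. At week 5 the log2 change of -1.80 ± 0.89 (edgeR adjusted p = 0.547) turned to 0.21 without sham pool A and became -2.67 (adjusted p = 0.0188) without sham pool B, where 57 of all rat miRNAs passed.

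For the mean of the 3 weeks 0 of 19 members passed, where 0% of all 327 did, and 3 had an unadjusted p under 0.05 (13.5% of all did). Beside miR-153-3p these were miR-877, with a log2 change of 0.55 ± 0.22 (edgeR adjusted p = 0.292), and miR-201-3p, with 0.65 ± 0.29 (edgeR adjusted p = 0.347). DESeq2 and limma-voom passed 0 members for the mean as well.

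At week 5 the smallest member p was that of miR-384-3p, the lesser arm of an X-linked hairpin. It had 11 and 22 reads in the 5/6Nx pools and 6 and 5 in sham, at 4.19 and 6.42 against 2.12 and 2.14 CPM, and the groups did not overlap. The log2 change was 1.32 ± 0.46 (edgeR adjusted p = 0.425). It had 3 and 4 reads against 4 and 11 at week 2 (-0.61 ± 0.58) and 18 and 6 against 4 and 6 at week 4 (0.73 ± 0.50). The other arm, miR-384-5p, had log2 changes of -1.79 ± 0.52, 0.43 ± 0.32 and -0.73 ± 0.33 at weeks 2, 4 and 5 and did not pass (edgeR adjusted p = 0.0859, 0.905 and 0.529). miR-296-5p, from a region imprinted in mouse around Gnas, had 3 and 9 reads against 2 and 3 at week 5 (0.98 ± 0.65, edgeR adjusted p = 0.653) and 6 and 5 against 8 and 9 at week 2. miR-3559-3p had 5 and 8 reads against 8 and 10 at week 5 (-0.69 ± 0.50, edgeR adjusted p = 0.664), 9 and 12 against 9 and 11 at week 2, and 17 and 7 against 4 and 15 at week 4.

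**Figure D5:**
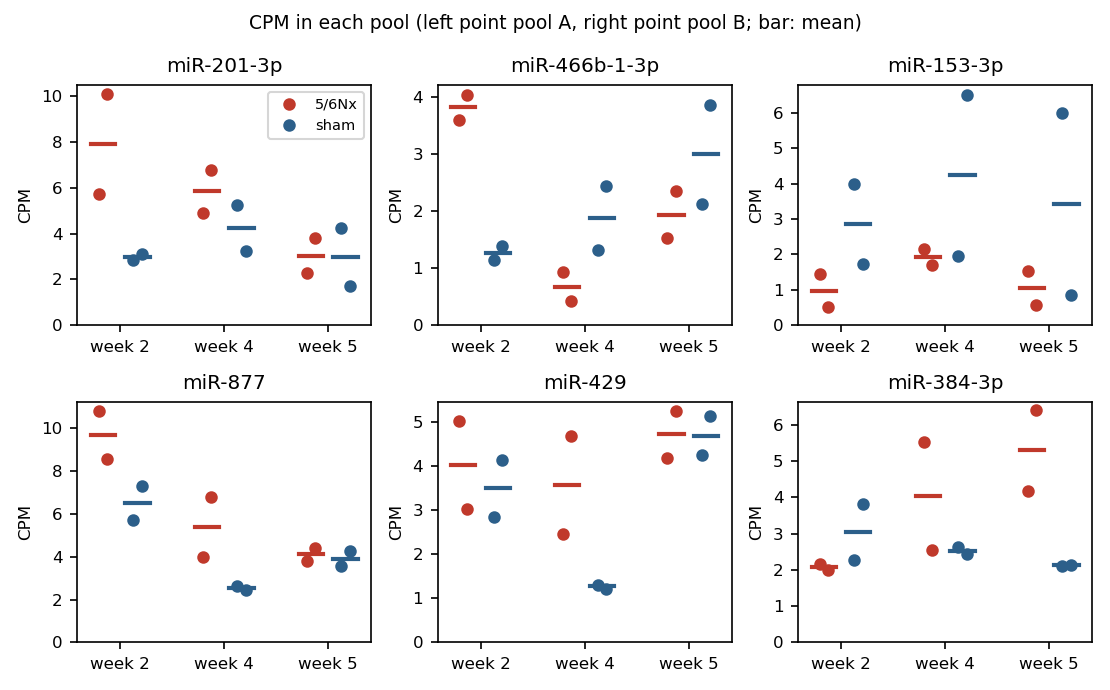
CPM in each pool of 6 of the 7 members with an unadjusted p under 0.05 in a comparison of surgery (5/6Nx in red, left of sham in blue, 1 bar for the mean of each group of 2 pools). miR-201-3p at week 2, miR-429 at week 4 and miR-384-3p at week 5 have both 5/6Nx pools above both sham pools, and in miR-153-3p 1 sham pool lies far above the other at weeks 4 and 5.

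miR-34b-5p, a target of p53 that with miR-34c is abundant in ciliated cells, had 4 and 5 reads in the 5/6Nx pools against 7 and 13 in sham at week 2, 10 and 7 against 5 and 7 at week 4, and 12 and 9 against 8 and 6 at week 5. Its log2 changes were -0.68 ± 0.44, 0.00 ± 0.42 and 0.37 ± 0.39 (edgeR adjusted p = 0.485, 0.998 and 0.885). It reached the level of the filter in 3 libraries only, both sham pools of week 2 and 5/6Nx pool A of week 5. It thus entered the tests largely through sham week 2, where it was high. The week 2 change is given as a description. The better counted miRNAs with its seed, miR-34a-5p (log2 0.26 ± 0.21, -0.45 ± 0.20 and -0.06 ± 0.20) and miR-34c-5p (-0.19 ± 0.27, 0.11 ± 0.27 and 0.24 ± 0.26), did not pass in any of these weeks (edgeR adjusted p of 0.522 to 0.975). miR-34b-3p, the other arm, was not tested, with 46 counts in all.

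Among the members that did not reach the filter, some groups held only 1 to 3 reads. Over the 41 members and 3 weeks this was so for 14 of 123 pairs of groups, and no group of both pools was at 0. The exact 95% interval of the scaled ratio, for counting error alone, excluded 1 in 4 of the 14. miR-582-5p, within the span of Pde4d, had 2 and 1 reads in the 5/6Nx pools against 7 and 8 in sham at week 4 (ratio 0.142, interval 0.0264 to 0.502). miR-325-3p had 8 and 9 against 2 and 1 at week 4 (ratio 4.02, interval 1.16 to 21.4). miR-1306-5p, cut from the transcript of Dgcr8, had 2 and 0 against 6 and 8 at week 2, and miR-3074 had 1 and 1 against 4 and 10 (ratio 0.196 for each, interval 0.0216 to 0.854). In the fit without the filter these did not pass (edgeR adjusted p = 0.579 for miR-582-5p, 0.717 for miR-325-3p, 0.224 for miR-1306-5p and 0.267 for miR-3074). The 14 pairs were chosen by the same low reads that form the ratios, which favours ratios far from 1. Intervals were made for these pairs only, so no share over all rat miRNAs stands beside the 4 of 14, and that count is not a test. These 4 miRNAs were also singled out after their values were seen.

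Grouped by role, the members touched 8 lists of miRNAs. The list of the imprinted Dlk1-Dio3 region, a large miRNA cluster known from embryo and brain, had 18 rat miRNAs, of which 5 were members (miR-127-5p, miR-134-5p, miR-323-3p, miR-409a-3p and miR-487b-3p). In that list 13 were tested, and only 1 of these, miR-134-5p, was a member. Of the 13, 0 passed upward or downward in any week in edgeR. Their median log2 changes were -0.03, -0.00 and -0.07 at weeks 2, 4 and 5. The neural list had 16 tested miRNAs, of which 0 passed. Its members were miR-138-5p, miR-153-3p and miR-219a-5p, which were tested, and miR-9a-3p, which was not. Its median log2 changes were 0.09, -0.19 and -0.03. Over all 327 miRNAs the medians were -0.09, -0.00 and 0.02.

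The list of epithelial miRNAs and miRNAs of other organs had 15 tested miRNAs, of which 0 passed, with medians of 0.09, 0.00 and -0.26. Its members were miR-429, miR-200b-3p, miR-203b-3p and the epithelial miRNA miR-205, of which miR-205 was not tested. miR-200b-3p had 1 and 5 reads in the 5/6Nx pools against 1 and 17 in sham at week 2, 6 and 2 against 9 and 4 at week 4, and 9 and 8 against 18 and 2 at week 5. The groups overlapped in all 3 weeks, and its log2 change of -1.06 ± 1.11 at week 2 (edgeR adjusted p = 0.630) turned to 1.54 without sham pool B. miR-205 had 4 and 0 reads against 1 and 9 at week 2. Whether these reads came from other tissue in the samples was not tested.

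Of the other lists, the fibroblast and profibrotic one held both arms of miR-34b (13 tested, 1 of them a member, 0 passed, medians of 0.26, 0.11 and 0.24). That of the miR-17-92 family held miR-93-3p, which was not tested (14 others tested, 0 passed, medians of 0.16, 0.09 and -0.08). That of the miR-15 and miR-16 family held miR-16-3p and miR-497-3p, neither of which was tested. Its 6 tested miRNAs were not members, and 0 passed (medians of -0.08, 0.26 and -0.04). Some lists leaned to 1 side in 1 week. The fibroblast list had 11 above and 2 below 0 at week 5. At week 4 the neural list had 4 above and 12 below, and the miR-15 and miR-16 list 6 above and 0 below. These leanings were not tested. The X-linked testis list held miR-201-3p, and 1 of its 4 tested miRNAs passed, the fall of miR-201-5p at week 2 (medians of -0.43, -0.32 and 0.00). The embryonic miR-290 cluster was represented by its member miR-293-5p alone. miR-293-5p had 18 and 6 reads in the 5/6Nx pools of week 5 and 1 and 35 in sham, so the sham pools differed more than the groups, and in weeks 2 and 4 it had 0 to 5 reads in each pool.

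Between the sham groups of weeks 2, 4 and 5, where time after surgery and the handling of that week cannot be told apart, 0 of 19 members passed in edgeR, where 7.34% of all 327 rat miRNAs did. The 24 miRNAs behind that share became 0 with the pool letter as a block or without sham pool B of week 2, 1 with miRNAs of other species and loci in the fit, 3 to 12 in the fits without 1 other library of weeks 2 and 4 or 1 5/6Nx library of week 5, and 114 without sham pool B of week 5, with more still without pool A. An unadjusted p under 0.05 was reached by 4 of 19 (21.1%, against 27.2% of all 327), and limma-voom passed 0 members. DESeq2 without its filter on low counts, which left all but 1 member with no adjusted p, passed 0 too (smallest adjusted p of a member 0.0662). In sham, miR-429 had 5 and 12 reads at week 2, then 2 and 3 reads at week 4, then 12 and 12 reads at week 5 (edgeR adjusted p = 0.0964). miR-877 had 5.70 and 7.27 CPM, 2.63 and 2.44 CPM and 3.54 and 4.28 CPM in these groups (adjusted p = 0.101). miR-296-5p had 8 and 9 reads, 1 and 4, and 2 and 3 (adjusted p = 0.0986). The fourth was miR-293-5p (adjusted p = 0.165), with the sham pools of week 5 at 1 and 35 reads. For miR-429 and miR-877 the low sham values of week 4 are thus the ones against which the 5/6Nx pools of that week were compared.

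As a description of pattern over the 12 libraries, the rat miRNA with the most similar log2 CPM was sought for each of the 10 highest members, and Pearson's r lay between 0.67 (miR-138-5p with miR-3102) and 0.84 (miR-134-5p with miR-582-5p). The 12 libraries share their scaling, and values this low carry much counting error. Each r is also the highest found among all other rat miRNAs, a choice that by itself favours high values.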

How the data were processed

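Libraries for small RNA used a TruSeq kit and an Illumina HiSeq instrument, per the labels' protocols. Tools named in the submitters' processing notes, without versions, are cutadapt, Bowtie and DESeq. The build, the miRNA annotation, the counting rules and the minimum for a miRNA to be listed are not given in the sources used. Each weekly table deposited by the authors holds raw read counts, per the file headers. The authors also deposited p-values and log2 fold changes of their own test, and a table of percent mapped reads whose pools were not joined to the pool letters. miRNAs listed under other species and genomic loci were left out of the tests because they can repeat reads.

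edgeR 4.0.16 (R 4.3.3) fitted the 12 libraries of weeks 2, 4 and 5 in 1 model with a mean for each of 6 groups, TMM scaling and filterByExpr at a minimum count of 10, which asked for 3.82 CPM in 2 libraries. The common dispersion was 0.0321, a coefficient of variation of 17.9% between pools. Tests were two-sided, with Benjamini-Hochberg adjustment over 327 miRNAs and a threshold of 0.05. SE is the log2 change divided by the square root of F. For members with few reads this SE can fall below counting error alone, so the ± values are too narrow for some of them. The fits were tested on simulated data. CPM used TMM library sizes. Intervals cover counting error only, since reads carry no molecular identifiers. Alternatives were DESeq2 1.42.0, limma-voom (limma 3.58.1), other scalings and filters, single weeks, a block for the pool letter and leaving out each library. DESeq2 without independent filtering was added after seeing the data. Log2 CPM for the likeness of patterns used a pseudocount of 0.5.

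The members, lists and tests were chosen with earlier results of these data known. Named with values are the 10 members of highest mean CPM and, in each week, up to 4 per direction with the smallest p among members past the filter. Sequences and coordinates are RefSeq's (GRCr8), matched by name. Gene spans came from the RefSeq gene table.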

Additional observations from a re-analysis of the deposited data

How the results depend on the processing

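Under 23 other settings the count of members that passed was 0 except in 5 recomputed counts, each without 1 of the sham libraries of week 5. Some of these zeros could hardly differ: a minimum count of 30 left 1 member to test, and DESeq2 gave an adjusted p to 1 member at week 2 and between the sham groups and to 0 in the test of differences between weeks. Without DESeq2's filter on low counts, chosen after seeing the data, all 19 members had one and 0 passed in all 6 comparisons. Leaving out each library in turn gave 0 to 1 members at week 2, at week 5, for the mean of the 3 weeks and between the sham groups, and 0 at week 4 and in the test of differences between weeks. At week 2 the member was miR-201-3p (log2 1.43, edgeR adjusted p = 0.0440, without sham week 5 pool A, and 1.59, adjusted p = 0.0386, without pool B). At week 5 and for the mean it was miR-153-3p, without sham week 5 pool B (log2 -2.67, edgeR adjusted p = 0.0188, and -1.77, adjusted p = 0.0192). Between the sham groups it was miR-293-5p, without pool A. In these fits more of all rat miRNAs passed too: 61 and 57 at week 2 without sham week 5 pool A or B, against 1 with all libraries, and 57 at week 5 and 49 for the mean without pool B, against 0 for each.

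Of 27 named changes, 24 kept their sign under every alternative run. The 3 that turned were miR-153-3p at week 5 (0.21 without sham week 5 pool A, -2.67 without pool B), miR-200b-3p at week 2 (1.54 without sham week 2 pool B, -2.29 without 5/6Nx week 2 pool B) and miR-34b-5p at week 5 (-0.03 without 5/6Nx week 5 pool A, 0.75 without pool B). With the pool letter as a replicate block within week, 0 members passed in each of the 6 comparisons, and it changed no call of a member. The deviations of same-lettered pools correlated at 0.17, -0.09 and 0.01 at weeks 2, 4 and 5, so the letters were not taken as a pairing.

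DESeq2 passed 34 of all rat miRNAs at week 2 and edgeR 1. The members' depth, a median of 6 reads, limits every statement on them: a change not detectable at this depth is not shown to be absent. The sham libraries of week 5 are the ones on which calls of members turn, and the cause was not tested.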

Other observations

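In the other direction, 8 rat miRNAs were listed at week 7 and not in the tables of weeks 2, 4 and 5. miR-212-5p, from the hairpin next to miR-132, had 18 and 15 reads in the 5/6Nx pools and 2 and 1 in sham. miR-129-5p had 13 and 5 against 2 and 1, and miR-378b had 18 and 18 against 11 and 8. The other 5 (miR-18a-3p, miR-122-5p, miR-139-3p, miR-191b and miR-673-3p) had 0 to 7 reads in each library. The 5/6Nx libraries of week 7 had more counts on rat miRNAs (1625699 and 1365890) than the sham libraries (1073616 and 672077), and these 8 were not tested.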
